A study of Mus musculus with 2 samples.

Results

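The gene-dense hotspot of mouse chromosome 10 is the stretch from 79000001 to 81000000 (mm9, positions counted from 1), the pair of neighbouring 1 Mb windows that held the most TCF1 intervals. It was chosen by that count from the deposited list, as every interval whose start fell between those positions. These intervals, called members here, numbered 835 of 104683 in the whole list, or 0.798% of the intervals and 1.12% of the summed score. Since the count chose the stretch, its density and spacing are given as a description, with no test. The stretch was also proposed with earlier results of these data known.

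The list came from 1 chromatin immunoprecipitation library with an antibody against TCF1. The cells were γδ T thymocytes sorted as CD24-positive with low or absent CFP, from C57BL/6 mice with the genotype TCRbeta KO, Sox13tg+ and Sox13 ECFP KI/+, which means that they lacked the T cell receptor β gene, carried a Sox13 transgene and held an ECFP reporter in 1 Sox13 allele. The sources used here do not give the promoter of the transgene, the age of the mice or whether animals were pooled. The input library, from the same kind of cells with no antibody, was not analysed here, and the values below therefore stand without a background. With 1 library there was no replicate, no comparison of conditions and no test. Read depth is unknown, and the defining markers of the cells cannot be checked in a list of chromatin intervals.

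TCF1, the product of Tcf7, belongs to the TCF/LEF family, whose HMG box bends DNA at a short motif with the core CTTTGAT. It acts in T lineage specification from early thymocyte stages on, partly by opening chromatin and partly through β-catenin and Groucho/TLE partners. Promoters and enhancers lie close together where genes are dense, and such GC-rich parts of the genome carry many peaks in ChIP maps of many factors.

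The part of chromosome 10 that this stretch covers is known for closely packed genes. No mm9 annotation or sequence was used here, so no member was assigned to a gene, promoter, exon or intron, and no sequence of a member is shown. In the order of genes on chromosome 10 in RefSeq (GRCm38), the block from Cdc34 to S1pr4 held 143 genes, of which 110 were protein-coding, 16 were long noncoding RNA genes and 9 were microRNA genes. That this block lies within the mm9 stretch is taken from general knowledge of the map, and it was not derived from the files. A list of 57 genes was drawn up by role from genes known on textbook maps of chromosome 10. All 57 matched the table by symbol, and 52 of them fell between these ends. Both counts follow from how the list and the ends were chosen, so they are no result about the stretch.

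Regulators of transcription and cell state in the block included Tcf3, which encodes E proteins, basic helix-loop-helix regulators of lymphocyte development. Despite its symbol, Tcf3 is not a member of the TCF/LEF family. Others were Gadd45b, a stress-induced activator of the p38 pathway in T cells, Arid3a, a regulator known from B cells, Zbtb7a, a zinc finger repressor that acts in lymphoid and erythroid development, and Nfic, a nuclear factor I member. Chromatin genes were Dot1l, a histone H3 lysine methyltransferase, Mbd3, a subunit of the NuRD complex, Hmg20b, a partner of the CoREST complex, and Pias4, a SUMO ligase. The block also held genes that nearly every cell uses. Among them were Polr2e, a subunit shared by the nuclear RNA polymerases, Polrmt, the mitochondrial RNA polymerase, Med16 of Mediator, Ptbp1 and Sf3a2 of splicing, Rps15 and Eef2 of translation, and Gpx4, which reduces lipid peroxides.

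Signalling genes of the block were Stk11, which encodes the kinase LKB1 that activates AMPK, Map2k2, a MAP kinase kinase, Mknk2, which phosphorylates a translation factor, Fzr1, an activator of the anaphase-promoting complex, and S1pr4, a sphingosine phosphate receptor of lymphocytes. Effector and secreted genes were Gzmm, a granzyme of cytotoxic lymphocytes, Elane and Prtn3, serine proteases of neutrophil granules, Cfd, a complement protease, and Amh, the anti-Müllerian hormone. Madcam1 came before Cdc34 in the order, and Gna15, Gna11, Tle5 and Tle2 came after S1pr4. Tle2 and Tle5 belong to the Groucho/TLE family. On which side of the stretch's borders these 5 genes lie was not analysed here. The genes named here are thus a mixture of lineage regulators, general machinery and genes of other cell types, such as the neutrophil proteases. Since they were listed by role, the mixture describes the list and was not tested for the stretch.

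Promoters of these genes were GC-rich, and few held the TCF core motif, as was so for protein-coding promoters in general. The RefSeq promoter table (GRCm38.p6, 250 bases before to 50 after each start) had 127 promoters for 93 of the 110 protein-coding genes of the block. Their median GC content was 61.7% (quartiles 57.7 and 66.5%), against 56.3% (48.3 and 64.7%) over 21262 promoters of protein-coding genes in all. The ratio of CpG dinucleotides to the number that the C and G content would give had a median of 0.736 in the block and 0.567 over all, and 67.7% of the block's promoters against 47.7% of all had a ratio of 0.6 or more. CTTTGAT, searched on both strands, was found in 3 of the 127 promoters (2.36%) and in 684 of all (3.22%). The longer form CCTTTGATC, which contains the core, was found in 0 of the 127 and in 53 of all (0.249%). These shares describe the letters of GRCm38 promoters and were not tied to any member.

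The 250 bases before the start are shown for Polrmt, Gng7 and Sgta, the 3 genes whose promoter window held the core motif, and for Tcf3, a lymphocyte regulator whose window held none. All run 5′ to 3′ on the gene's strand, from chromosome 10 in RefSeq's GRCm38.p6, and capitals mark CTTTGAT or its reverse complement ATCAAAG.
Polrmt: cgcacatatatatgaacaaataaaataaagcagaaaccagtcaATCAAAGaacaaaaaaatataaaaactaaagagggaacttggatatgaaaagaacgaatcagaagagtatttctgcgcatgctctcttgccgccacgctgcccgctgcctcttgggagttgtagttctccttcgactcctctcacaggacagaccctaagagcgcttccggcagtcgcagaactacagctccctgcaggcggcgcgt
Gng7: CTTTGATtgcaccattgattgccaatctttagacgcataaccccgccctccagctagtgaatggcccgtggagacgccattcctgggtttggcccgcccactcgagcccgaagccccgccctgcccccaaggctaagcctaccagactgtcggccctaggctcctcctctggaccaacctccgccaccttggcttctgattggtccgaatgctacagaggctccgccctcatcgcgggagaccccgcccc
Sgta: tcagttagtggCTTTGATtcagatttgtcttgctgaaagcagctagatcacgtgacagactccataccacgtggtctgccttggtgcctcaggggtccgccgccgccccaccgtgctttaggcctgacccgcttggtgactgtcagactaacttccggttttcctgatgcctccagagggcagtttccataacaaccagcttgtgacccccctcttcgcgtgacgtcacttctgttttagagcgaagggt
Tcf3: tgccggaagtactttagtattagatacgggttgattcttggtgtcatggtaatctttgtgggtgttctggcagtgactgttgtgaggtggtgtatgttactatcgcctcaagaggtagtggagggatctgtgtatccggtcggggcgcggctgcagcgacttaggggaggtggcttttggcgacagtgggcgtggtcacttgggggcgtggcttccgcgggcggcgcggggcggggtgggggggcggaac
The match began 207 bases before the start of Polrmt, on the opposite strand, and 250 and 239 bases before the starts of Gng7 and Sgta, on the gene's strand. The Tcf3 window, with 61.7% GC, was near the median of the block, and those of Polrmt (52.0%) and Sgta (53.0%) were below its lower quartile. Gng7 encodes a G protein γ subunit and Sgta a co-chaperone, which was named only because its window held the motif.

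TCF1 intervals lay along the whole stretch with few breaks. There were 417.5 members per Mb, with 418 in the left 1 Mb and 417 in the right. Members covered 250.2 kb of the 2 Mb, or 12.5% of the bases. The median distance between midpoints of neighbours was 1425 bp (95% interval 1325 to 1550), with 1450 bp in the left window and 1400 bp in the right. Both windows were thus filled to the same extent. Here and below, the 95% intervals of medians are order-statistic intervals, and those of shares are Clopper-Pearson intervals. Both kinds cover counting error only and treat TCF1 intervals as independent, which neighbours in a region are not.

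In 50 kb bins the count ran from 7 to 41, with a median of 20.5 and a mean of 20.9 ± 7.92 (SD over 40 bins). No bin was empty, and 38 of 40 held 10 or more. The fullest bin, from 80700001 to 80750000, held 41 members over 21.1% of its bases. After it came those starting at 80750001 with 34, at 80350001 with 33, and at 79350001 and 79400001 with 32 each. The fullest bins therefore formed 2 pairs of neighbours, 1 in each window, and 1 bin apart from them.

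The emptiest bins were those from 80050001 to 80100000 and from 80200001 to 80250000, with 7 members each. They covered 5.8% and 3.4% of their bases. The bins starting at 79000001 and 79050001, at the left border, held 10 each, and the bin starting at 80650001, just before the fullest, held 11. Height in these 5 bins was not low throughout. Their median heights were 47.3, 47.1, 39.4, 52.8 and 40.6, against 45.4 over all members. Height is the score per 50 bp of an interval's width, meant to keep a wide interval from counting as strong by its width alone. This assumes that the score is a sum over steps of 50 bp. Height still rose with width, as given below. The sources used here do not say what the deposited score measures.

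**Figure D1:**
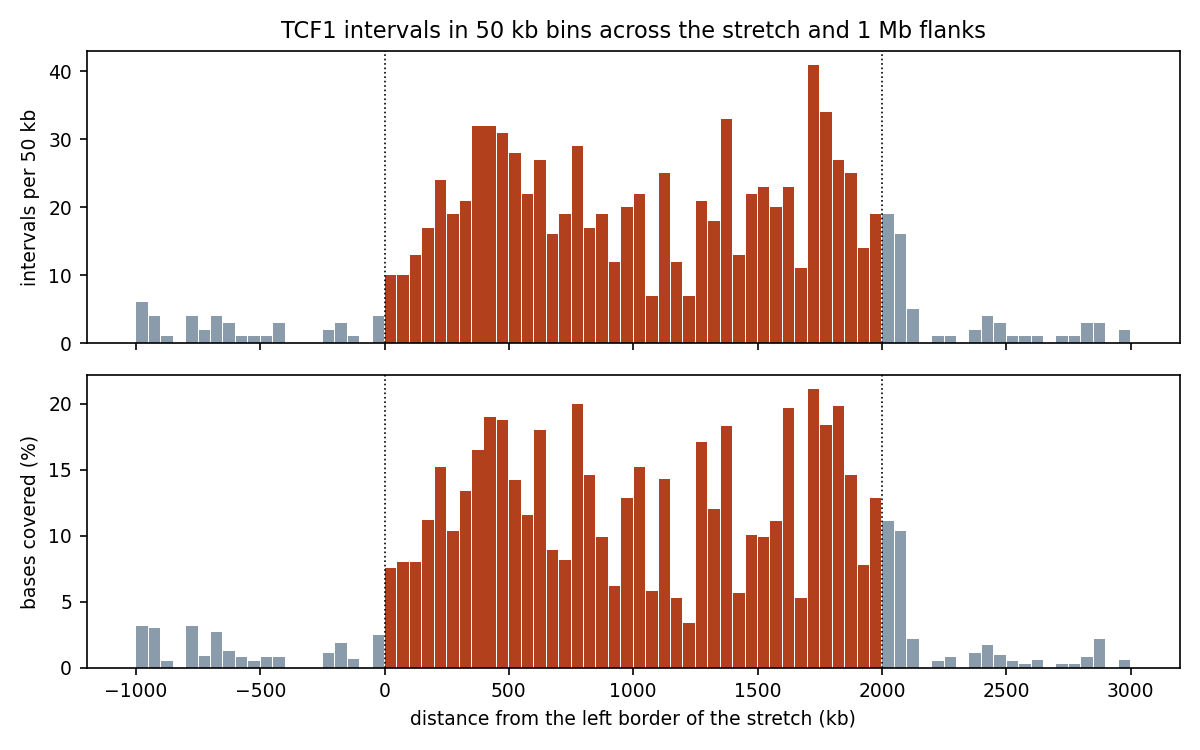
Number of intervals (upper panel) and share of bases they cover in percent (lower panel) in 50 kb bins against the distance in kb from the left border of the stretch, with bins of the stretch in red, bins of the 1 Mb flanks in grey and dotted lines at the borders. Bins of the stretch hold 7 to 41 intervals, and the high values go on into the first bins right of the border.

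At a finer scale the filling stayed dense. Of 200 bins of 10 kb, 11 (5.5%) were empty, against 73 of 100 in the left flank and 68 of 100 in the right. The median was 4 members per 10 kb and the fullest bin, from 79320001 to 79330000, held 13. The gap between the end of a member and the start of the next was 1150 bp at the median (quartiles 450 and 2600 bp). Of 834 gaps, 387 (46.4%) were at most 1 kb and 813 (97.5%) were at most 10 kb. The shortest gap was 50 bp, 1 step of the list's grid, and occurred 14 times.

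The 3 longest breaks were each over 20 kb. They ran from 79289650 to 79316151 (26500 bp without a member), from 80218400 to 80240251 (21850 bp) and from 79048200 to 79069351 (21150 bp). The members at their 6 edges had heights of 28.0 and 35.3, 47.1 and 29.0, and 34.1 and 26.9, so 5 of the 6 lay below the median of the stretch. Across gap classes, the mean height of the 2 members beside a gap had a median of 47.4 for gaps up to 200 bp (104 gaps), 45.9 for gaps of 1 to 5 kb (364), 43.5 for 5 to 10 kb (62) and 41.9 for 10 to 20 kb (18). Members beside wide gaps were somewhat lower in these values.

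When intervals of the whole list at most 10 kb apart were joined, 22 domains overlapped the stretch. Of these, 1 was a single interval, and 17 contained 10 or more intervals, counting those outside the borders. At each border 1 domain reached past the stretch, so the 17 domains held 845 intervals, more than the number of members. A domain from 79316151 to 79565350 was the fullest, with 150 intervals, and began at the right edge of the longest break. Its median height was 46.9. Next came one from 80676101 to 80896550 (132 intervals, median height 46.5) and one from 79840401 to 80053000 (81 intervals, median height 42.8). Intervals covered 16.9%, 17.3% and 12.1% of these domains. The number of domains depends on the joining distance, with 84 at 5 kb and 4 at 20 kb.

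Members tended to be high, and few were low. The median height was 45.4 (95% interval 44.1 to 46.9), with quartiles at 36.0 and 55.2. Over all intervals outside the stretch the median was 33.9 (33.7 to 34.0), a ratio of 1.34, and over the rest of chromosome 10 it was 32.6 (31.7 to 33.2). The lower part of the distribution was thin. Of the 835 members, 36 (4.31%, 95% Clopper-Pearson interval 3.04 to 5.92%) were below the lower quartile of the whole list, a height of 21.5, and 404 (48.4%, 44.9 to 51.8%) were above its upper quartile of 46.1. The 10th percentile of height was 27.6 in the stretch and 10.5 over the whole list, while the 90th percentiles were 64.6 and 57.0. The gap between the stretch and the list was thus widest among low intervals.

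**Figure D2:**
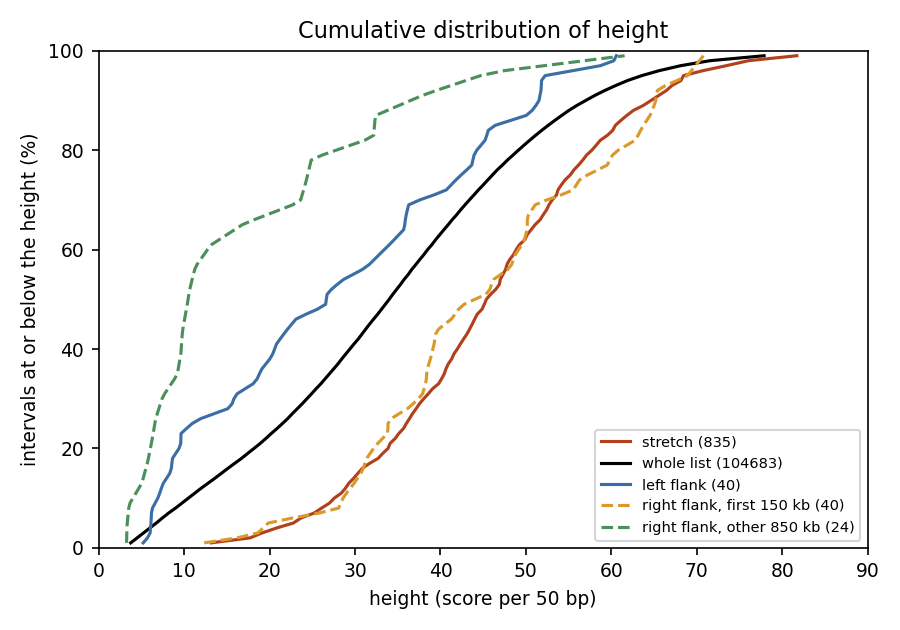
Cumulative share of intervals in percent against height (score per 50 bp) for the stretch, the left flank, the first 150 kb and the other 850 kb of the right flank and the whole list, with the number of intervals in brackets and percentiles 1 to 99 drawn. The curves of the stretch and of the first 150 kb of the right flank run close together, with medians of 45.4 and 44.0, to the right of the whole list.

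Bin medians of height stayed near the median of the stretch. They ran from 30.8 to 56.5 over the 40 bins, and 30 of them lay from 40 to under 50. In 39 of 40 bins the median exceeded 34.0, the median of the whole list. The exception was the bin from 79900001 to 79950000, with 12 members and a median of 30.8, and the highest median, 56.5, belonged to the bin from 80800001 to 80850000 with 27 members. The left and right windows had medians of 45.8 (43.8 to 47.6) and 45.3 (43.7 to 47.0), which overlapped. Over the 40 bins, count and median height had a Pearson's r of 0.29 and a Spearman's rho of 0.30. With 20 bins of 100 kb, r was 0.12 and rho was 0.063. The bins share 1 library and neighbouring bins share domains, so this is a description.

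Heights of neighbouring members were nearly unrelated. The heights of a member and of the next member along the chromosome had a rho of 0.06 over 834 pairs, and of any interval and the next on chromosome 10 a rho of 0.26 over 5171 pairs. The chromosome also contains low and high regions, which the second value includes. The spread within single bins was wide. In the fullest bin the quartiles of height were 35.8 and 57.0, and in the bin of lowest median 26.2 and 43.9.

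**Figure D3:**
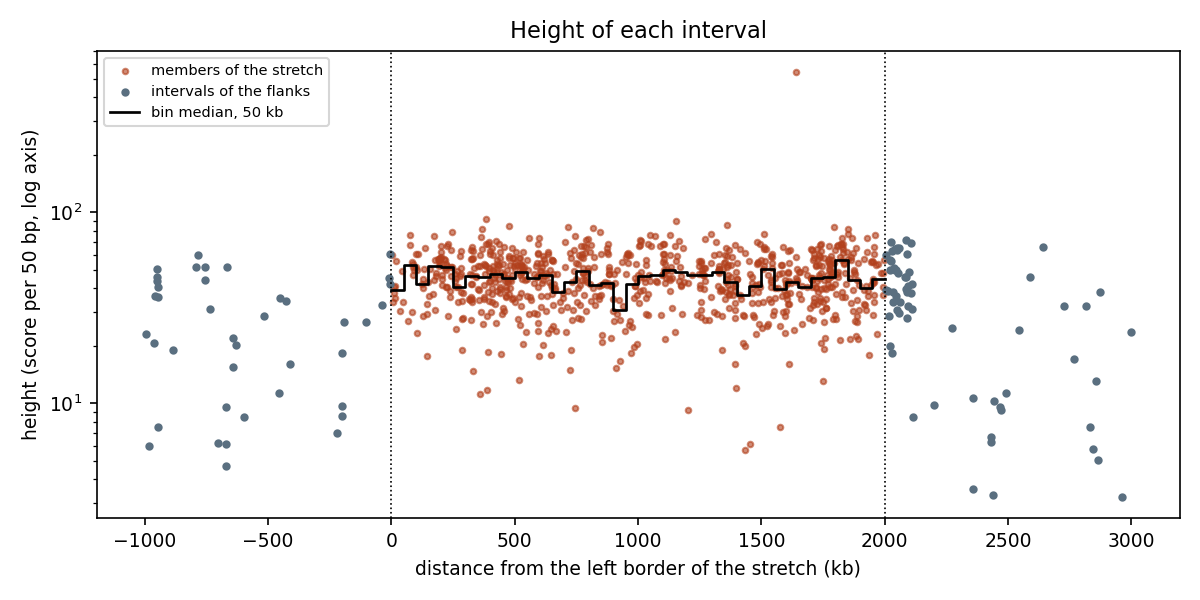
Height of each interval (score per 50 bp, log axis) against the distance in kb from the left border, with members in red, intervals of the 1 Mb flanks in grey and the median of each 50 kb bin of the stretch as a black line. Bin medians lie from 30.8 to 56.5, 1 member stands at 543, and most heights in the outer flanks lie below the line.

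One member stood far above the others. The interval from 80641251 to 80641700, 450 bp wide with a score of 4890, reached a height of 543. This was 12.0 times the median of the stretch and 1.92% of its summed score. It ranked 29th by height in the whole list and was the 1 member among the 105 highest intervals of the list, those above a height of 132.8. The 6 other members within 10 kb had heights from 24.3 to 58.6 with a median of 44.8. Its neighbours were thus of usual height. No input value stands beside it, and what part of its score reflects TCF1 binding was not tested. Leaving this interval out moved the median height of the stretch to 45.3.

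The next 4 members by height were close to one another. They ran from 79384301 to 79384700 (height 92.2), from 80153801 to 80154150 (90.2), from 80360451 to 80360800 (85.5) and from 79476251 to 79476700 (85.1). All 4 were 350 to 450 bp wide and at most 2.03 times the median. Of these, 2 lay within the domain of 150 intervals. At the lower end, the members from 80432201 to 80432350 (height 5.67), from 80453001 to 80453100 (6.12) and from 80576201 to 80576300 (7.5) were 100 or 150 bp wide. All 3 lay in the right window.

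Members were also slightly wider than the list as a whole. The median width was 250 bp (quartiles 150 and 350 bp), against 200 bp (150 and 300 bp) over all other intervals. Widths moved in steps of 50 bp, so the medians differed by 1 step. Members of 500 bp or more made up 14.3% (119 of 835, 95% interval 12.0 to 16.8%), against 9.64% (9.46 to 9.82%) of all other intervals, and members of 100 bp, the narrowest width listed, 12.3% (10.2 to 14.8%) against 16.2% (16.0 to 16.4%). Intervals of 1 kb or more were 13 of 835 (1.56%, 0.832 to 2.65%) and 0.964% (0.905 to 1.02%) of the others.

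The widest members were spread over both windows. They ran from 80297051 to 80298850 (1800 bp, score 2790, height 77.5), from 79003001 to 79004650 (1650 bp, 1964, 59.5) and from 79803851 to 79805200 (1350 bp, 1673, 62.0). Another 2 of 1300 bp each, from 80612251 to 80613550 and from 80616051 to 80617350, began in the same 50 kb bin and had heights of 33.0 and 63.7. Thus 1 of these 5 lay below the median height. By score, the interval of height 543 came first, followed by the widest 2 and by those from 80069001 to 80070200 (1810, height 75.4) and from 79844201 to 79845300 (1739, height 79.1).

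Members exceeded the list in median height at each width. Among intervals of 100 bp the median height was 35.3 in the stretch (103 members) and 24.9 in the list. Among those of 200 bp it was 41.8 (128 members) and 32.4, and among those wider than 600 bp it was 59.8 (57 members) and 52.9. In each of the 12 width classes compared the stretch had the higher median, with the narrowest margin at 550 bp, 50.7 against 48.4. Over members, width and height had a rho of 0.51 (n = 835), and over the whole list 0.40.

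**Figure D4:**
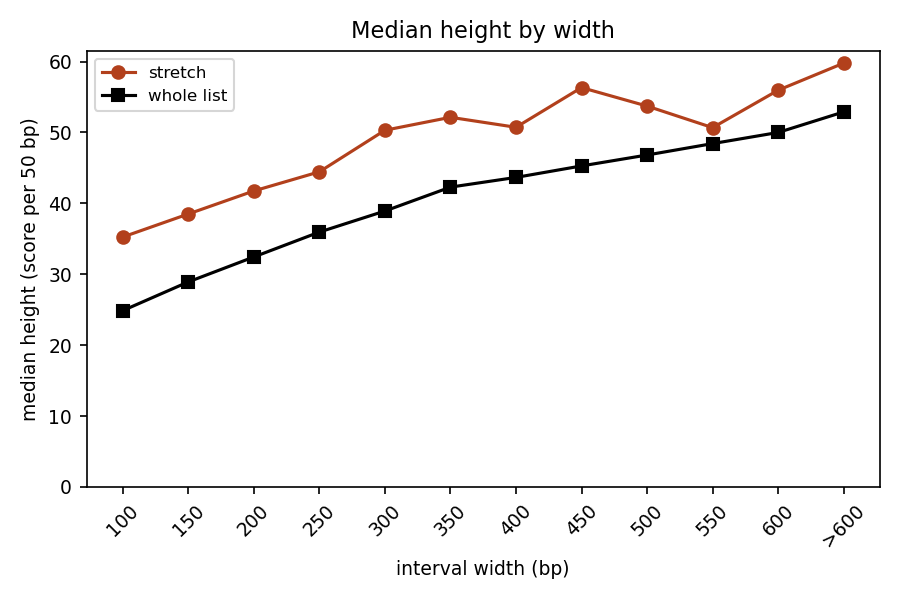
Median height (score per 50 bp) by interval width in bp for the members of the stretch (red circles) and the whole list (black squares), with all widths over 600 bp in 1 class. The stretch lies above the list in all 12 classes, from 35.3 against 24.9 at 100 bp to 59.8 against 52.9 over 600 bp.

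Intervals were sparse over the megabase left of the stretch, and the count rose over several bins at the border. The left flank of 1 Mb held 40 intervals, so the stretch was 10.4 times as dense on average. Its 50 kb bins held 0 to 6, and intervals covered 1.2% of its bases. The median height there was 26.6 (95% interval 18.4 to 35.9), and 17 of the 40 (42.5%, 27.0 to 59.1%) were below the lower quartile of the list. The nearest interval outside, from 78996001 to 78996650, was 650 bp wide with a height of 60.9. The first inside, from 79003001 to 79004650, was the second widest member, with a height of 59.5. Neighbours on either side of the border therefore looked alike.

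Outside the border only 3 more intervals belonged with the dense run. Followed outward without a gap longer than the longest inside (26500 bp), the run began at 78990251, after an empty 27750 bp. With 50 kb allowed it began at 78962151 with 1 more interval, after an empty 63750 bp. The dense run thus began within 40 kb of the border, by either limit. The last 2 bins outside held 0 and 4 intervals, and the first 5 inside held 10, 10, 13, 17 and 24.

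The right border did not coincide with the end of the dense run. The first 50 kb bins right of it held 19, 16 and 5 intervals, and the next held none. These 40 intervals had a median height of 44.0 (38.3 to 50.2), a median width of 250 bp, and 7.5% (1.57 to 20.4%) below the list's lower quartile, values close to those of the members. The last member, from 80997651 to 80998350, had a height of 56.5, and the nearest interval outside, from 81004601 to 81004900, a height of 39.3. The run ended at 81114350, 114 kb past the border, and was followed by 85650 bp with no interval. In all it held 878 intervals over 2124 kb. The whole-Mb border of the rule thus left out its last 40 intervals on the right.

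Beyond that end, intervals were sparse and low. The other 850 kb of the right flank held 24 intervals, with a median height of 10.5 (6.69 to 24.3), and 16 of them (66.7%, 44.7 to 84.4%) were below the lower quartile of the list. Together, these 850 kb and the whole left flank, which includes the 3 intervals that joined the run, held 64 intervals with a median height of 20.5 (11.3 to 28.5), so members were 2.21 times as high at the median and 12.1 times as dense as these. With the flanks as whole megabases, which include the 40 intervals at the right border, the ratios were 1.40 and 8.03, and with flanks of 2 Mb they were 1.17 and 5.29. The stretch was chosen by count, and the cut at 150 kb was set after seeing where intervals thinned out. The drop in density, with its ratio of 12.1, therefore follows from these choices. Past the right end of the run the median height was lower too, at 10.5 against 44.0 in the 40 intervals before it. The left flank, which is not at that end, had a median of 26.6.

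In RefSeq's GRCm38 order, the 25 protein-coding genes before Cdc34 included Vmn2r80 to Vmn2r83, vomeronasal receptor genes, and before them a series of olfactory receptor genes. Receptors of these 2 kinds are known from sensory neurons. The receptor genes did not adjoin Cdc34, since Plpp2, Mier2, Theg, C2cd4c, Shc2, Odf3l2, Madcam1 and Tpgs1 came between Vmn2r83 and it. Genes of other kinds, such as Casp14 and Slc1a6, also stood among the olfactory receptor genes. The 25 after S1pr4 included the zinc finger genes Zfp433, Zfp781, Zfp873 and Zfp938, which followed Tle6 and Sirt6. Where these genes lie in mm9 relative to the drops in density was not analysed here. Farther out, the window from 77000001 to 78000000 held 144 intervals with a median height of 44.0, so the sparse left flank lay between this window and the stretch. The window from 82000001 to 83000000 held 68 with a median of 36.3.

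Other well-filled windows approached the stretch in median height, which 1 of the 50 next in count exceeded, but not in number. The 2 windows of the stretch ranked 9th and 12th by median height among 1740 windows of 1 Mb with 20 or more intervals. The next fullest single window lay on chromosome 7 from 52000001 to 53000000 and held 282 intervals with a median height of 41.2 (39.1 to 43.7). Those on chromosome 4 (140000001 to 141000000, 267 intervals), chromosome 17 (27000001 to 28000000, 265) and chromosome 11 (115000001 to 116000000, 260) had medians of 39.2, 38.7 and 41.5. Intervals covered 6.09 to 7.4% of these 4 windows, against 12.6 and 12.4% in those of the stretch. Their median distances between midpoints were 1900 to 2400 bp.

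Low intervals were few in those windows too. Below the list's lower quartile were 6.38, 7.12, 7.92 and 10.8% of their intervals, in the order given, against 4.31% of the members. Over the 50 windows next in count, with 165 to 282 intervals, the median height ran from 35.3 to 46.1, and 1 of them exceeded the median of the stretch. The median width was 250 bp or more in 11 of these 50. The higher level of the members was thus at the upper end of what full windows showed, and with 1 library no test of the difference can be given.

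**Figure D5:**
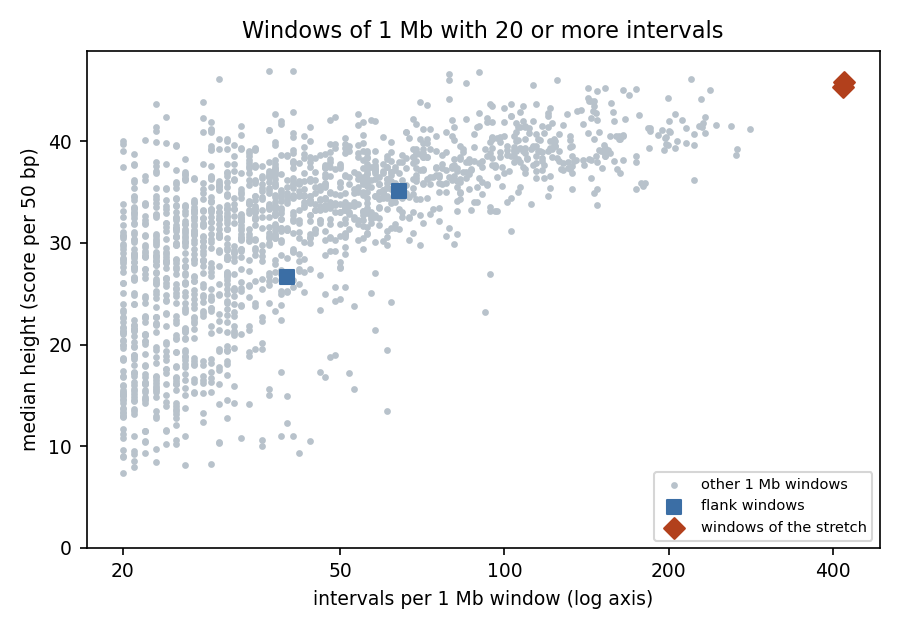
Median height (score per 50 bp) against the number of intervals (log axis) for the 1740 windows of 1 Mb with 20 or more intervals, with the 2 windows of the stretch as red diamonds and the 2 flank windows as blue squares. The red diamonds lie alone at 417 and 418 intervals, at medians that a few emptier windows also reach.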

How the data were processed

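The deposited file lists intervals of 1 TCF1 ChIP library with 1 score each, without a header. Per the submitters' processing notes the build was mm9. The sources used here do not give how the authors made the score, nor the aligner, caller, threshold and use of the input. Per the labels' protocols, 1000000 cells were fixed with 1% formaldehyde, and the library was amplified for 17 cycles and cut at 300 to 500 bp. Because each start was a multiple of 50 bp and each end 1 bp below one (100% of both), ends were taken as inclusive. There were 0 duplicates and 0 overlaps between neighbours.

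Counts, widths, heights (score / width × 50 bp) and gaps were computed in 50 kb bins in Python 3.11.15 (numpy 2.4.6, scipy 1.17.1, pandas 2.3.3, drawn with matplotlib 3.10.9), and the measures were tested on simulated data. Shares have Clopper-Pearson and medians order-statistic 95% intervals. Intervals were named by rule: the 5 highest, 5 highest-scoring and 5 widest, those at the borders and the 3 longest gaps, with the 5 fullest and 5 emptiest bins and 3 domains. The lowest 3 members, the end of the dense run, the 10 kb bins and the windows beside the stretch were added after the values were seen. Members, rules and gene lists were chosen with earlier results of these data known. RefSeq genes and promoters (GRCm38.p6) were used for names, order and promoter letters, never for positions.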

Additional observations from a re-analysis of the deposited data

How the results depend on the processing

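Among 29 values under alternative settings, 13 remained close and 16 moved. Close meant within 1.5 times for counts and inside the 95% interval otherwise (for the correlation, that of Fisher's transformation). For the ratio of heights, the range instead divided opposite ends of the 95% intervals of both medians. That range is wider than a 95% interval of the ratio. Assigning members by midpoint changed nothing, and the correlation over bins (r = 0.29, rho = 0.30) was 0.31 and 0.33 in 25 kb bins and fell to 0.12 and 0.063 in 100 kb bins. With the upper 50% of the list by score, the median width was 300 bp, the median height 50.2 and the median midpoint distance 1925 bp, since that choice removes low and narrow members. Joining intervals within 1 kb left 448 intervals in the stretch, with a median width of 450 bp, a height of 35.0 over the joined span, which includes the gaps, and a distance of 3575 bp. Borders 500 kb further in left 389 members, by construction. The median score as deposited was 210.2, in another unit, and members of exactly 200 bp had a median height of 41.8. The density ratio of 8.03 to the flanks became 6.42 with flanks of 500 kb and 5.29 with flanks of 2 Mb, and the height ratio of 1.40 became 1.27 and 1.17. Leaving out the first 150 kb of the right flank, chosen after seeing the data, gave 12.1 for density and 2.21 for height. Domains numbered 84 at a joining distance of 5 kb and 4 at 20 kb, in place of 22. No paired analysis was possible because a single ChIP library was listed. The unknown depth limits what low or missing intervals show.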
